A study of Mus musculus with 8 samples.

Results

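The genes described here encode the proteins of the cytosolic ribosome. They were chosen by symbol, as those starting with Rpl (large subunit) or Rps (small subunit) followed by a digit, a or p, without the kinases named Rps6k and without symbols marked as pseudogenes by -ps. The rule found 87 of the 22063 genes in the table, 52 of the large and 35 of the small subunit. Of these, 77 were core ribosomal proteins and 10 were paralogs or other proteins that share the name, and 83 of the 87 were assigned to the Ribosome pathway of KEGG in the same table. RNA-seq was performed on 8 mouse libraries labelled as wild-type (WT) liver, 4 labelled Control and 4 labelled Control+tranilast, tranilast being an anti-allergic drug. According to the series design the diet was high in fat and cholesterol (HFHC) in both groups, and the study's methods give male C57BL/6J mice that received tranilast by mouth in sodium carboxymethylcellulose, or that vehicle alone. The dose given to the sequenced mice was not stated in the sources used here, nor whether each library came from a separate mouse, so p-values measure only the spread between these libraries. The comparison asks how the ribosomal protein mRNAs differed with tranilast, and whether the large and small subunits differed together.

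The libraries held between 12053036 and 15618787 estimated counts, and an undetected gene may have up to 3 counts, or 0.192 to 0.249 CPM (counts scaled to a common library total). Hepatocyte markers were almost absent: 9 markers, among them Alb and Apob, summed to at most 1.49 CPM in any library, and Hnf4a, Tat, Cps1 and Serpina1a were at 0 in all 8. The 10 macrophage markers summed to between 8190 and 8880 CPM, with Lyz2 and Csf1r highest. Of that list, C1qa and C1qb were almost absent, at no more than 0.717 and 0.401 CPM in any library. The 4 Kupffer cell markers summed to at most 0.589 CPM and Clec4f was at 0. Of the 8 macrophage markers tested, 5 were called lower and 3 higher with tranilast. In the same test, explained below, 28.8% of all tested genes were called lower and 28.2% higher. The values below are those of libraries labelled liver that lacked hepatocyte markers. The part of this marker pattern in the results was not tested, and fewer cells of a type and less RNA per cell cannot be told apart.

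Ribosomal proteins assemble with ribosomal RNA in the nucleolus into a large subunit, which joins amino acids, and a small subunit, which reads the mRNA. Cells make them in about equal amounts, and their mRNAs are among the most abundant of a growing cell. Most of these mRNAs start with a cytosine followed by a run of pyrimidines, the terminal oligopyrimidine tract, through which the kinase mTOR and the protein Larp1 set their translation as a group.

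The annotated starts show this shared feature in part. RefSeq starts (GRCm38.p6) were matched for 67 of the 87 members. A C at the start followed by at least 4 further C or T, read on the strand of the gene, was present in 14 of the 67 (20.9%), against 3.01% of 27025 genes in the same table. The letters CCGGAAG, the core of sites bound by ETS factors, were searched on both strands of the 300 bases around each start (250 before and 50 after) and were present in 26 members (38.8%), against 9.93% of those genes. Both are descriptions of the annotated letters, and a start placed a few bases away hides the tract. The windows printed here hold 10 bases before and 20 bases from the start, with the tract in capitals. They show a long tract (Rpl15), the substrate of the S6 kinases (Rps6), a parent gene and its retrogene (Rps27 and Rps27rt), the member with the largest positive difference (Rps18), and a member that was higher with tranilast and has no tract at its annotated start (Rpl12).
Rpl15 (chr14:18270967-18270996, minus strand): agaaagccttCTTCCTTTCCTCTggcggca
Rps6 (chr4:86857348-86857377, minus strand): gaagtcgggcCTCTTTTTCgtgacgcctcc
Rps27 (chr3:90213629-90213658, minus strand): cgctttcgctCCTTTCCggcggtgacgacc
Rps27rt (chr9:114982720-114982749, minus strand): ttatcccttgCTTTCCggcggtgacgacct
Rps18 (chr17:33955646-33955675, minus strand): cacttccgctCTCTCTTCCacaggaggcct
Rpl12 (chr2:32961702-32961731, plus strand): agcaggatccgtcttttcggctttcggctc
The 14 members with the tract had a median log2 fold change of -0.11, and the 49 tested members with a start but no tract had -0.08, on the edgeR scale explained with the comparison.

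As levels per length of transcript (FPKM, mean over the 8 libraries), the core members were abundant. Their median was 775 FPKM, 58 of 77 lay between 500 and 2000 FPKM, and 49 were among the 100 highest of all genes. The highest was Rplp0, the base protein of the stalk that recruits translation factors, at 1835 FPKM, followed by Rpl4 at 1765 FPKM. The lowest were Rps18 at 51.1 FPKM and Rps20 at 83.8 FPKM. The Rps20 value rests on a transcript length of 3706 bases, far above its coding length of 357 bases, and most counts of Rps18 were listed under its pseudogenes, as described with that gene. The counts of all members made up 4.94, 5.38, 5.13 and 5.004% of the control libraries in replicates 1 to 4 and 5.35, 5.40, 5.21 and 5.50% of the tranilast libraries. The groups overlapped in these shares through control replicate 2.

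The ribosomal protein mRNAs differed little between the groups, and their direction depended on how the libraries were scaled. With TMM, a scaling that centres the bulk of genes, the median log2 fold change (tranilast over control) of the 83 tested members was -0.09 and the range was -0.41 to 0.46. Of them, 30 were called lower and 4 higher (edgeR quasi-likelihood test, Benjamini-Hochberg adjusted p under 0.05 over 10770 genes). With the library totals alone, edgeR called 0 members lower and 28 higher, with 33 members under an unadjusted p of 0.05, and limma on log2(FPKM + 1) called 0 lower and 20 higher (24.1%), where 15.4% of all tested genes were called lower and 36.8% higher. Among all tested genes, 28.8% were called lower and 28.2% higher with TMM, 57.0% in either direction, and 17.6% lower and 42.8% higher with library totals. Of the tested members 36.1% were called lower and 4.82% higher with TMM, 41.0% in all. The study's methods give a threshold on the log2 fold change of 1.5 in size, with limma. With the adjusted p used here beside that threshold, edgeR passed 0 members, against 1.11% of genes. DESeq2 and limma-voom also passed 0, and 37 members had an unadjusted p under 0.05 in edgeR.

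A scaling shifts all genes by nearly the same amount, so it moved the members and the other genes together. The median log2 fold change of all tested genes was 0.01 with TMM and 0.13 with library totals, and the members' median was 0.09 below it with TMM, RLE, upper-quartile and library-total scaling alike. In these 4 scalings, 29 of the 83 members had a negative fold change each time, 12 a positive one each time, and 42 changed direction. The number called lower in all 4 was 0, and the members called higher in all 4 were Rpl12, Rpl3 and Rps18. Upper-quartile scaling called 4 members lower, namely Rps29, Rpl27, Rpl36al and Rpl7l1, and 14 higher (4.82 and 16.9%), against 21.6% and 36.0% of all tested genes.

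**Figure D1:**
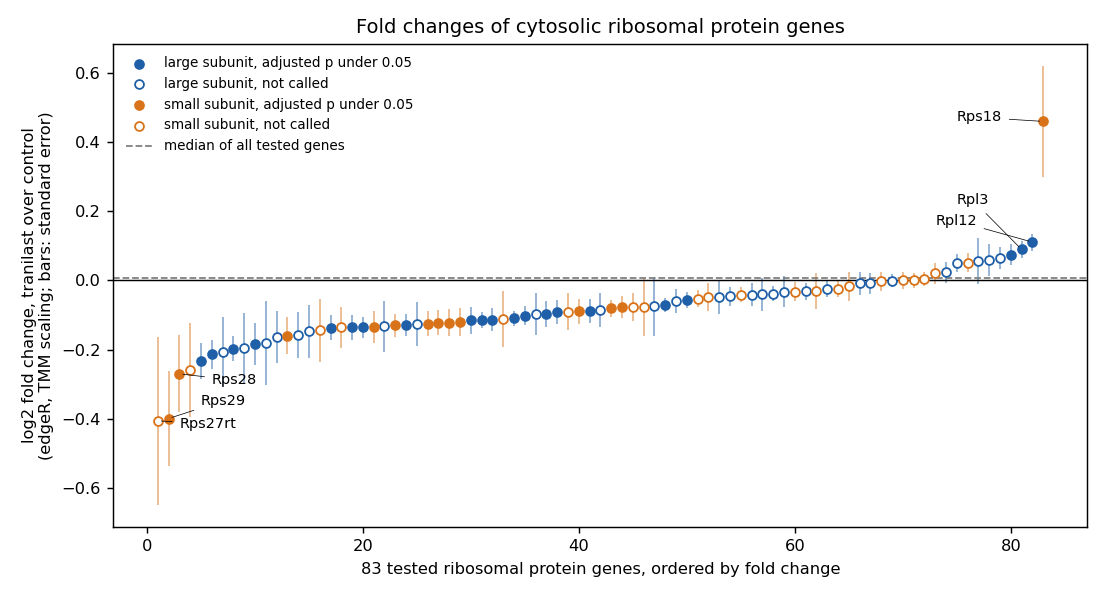
Log2 fold change of each of the 83 tested members (tranilast over control, edgeR with TMM scaling), ordered by value, with bars for the standard error and filled points for an adjusted p under 0.05. Most lie slightly below 0, between Rps27rt at -0.41 and Rps18 at 0.46, and with scaling by library totals most lie above 0.

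**Figure D2:**
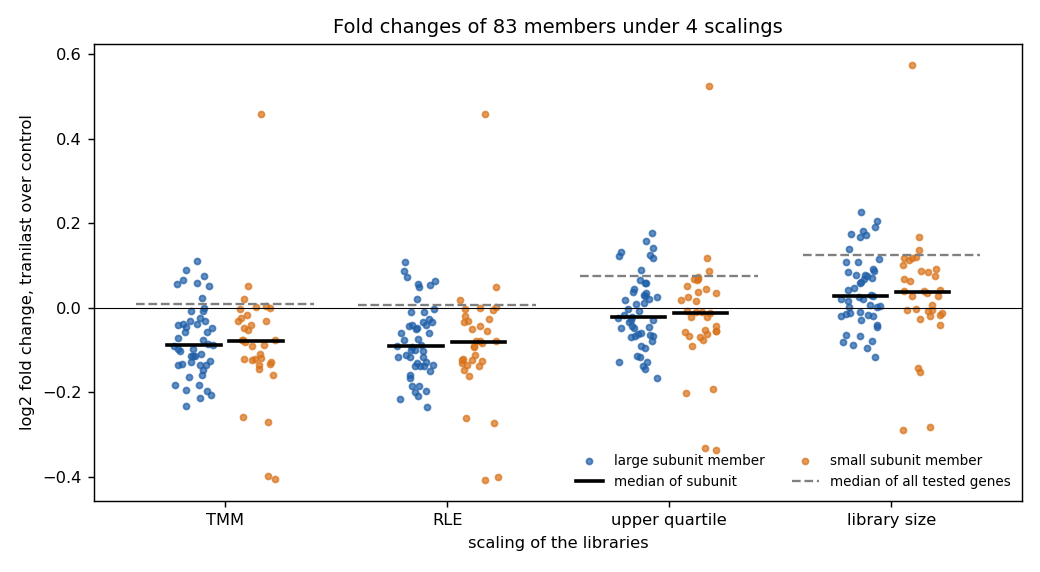
Log2 fold changes of the same members under 4 scalings of the libraries, with the median of each subunit (black) and of all tested genes (dashed). By construction a scaling moves all genes by nearly the same amount, so the members shift as a block, and their subunit medians lie above 0 with library totals.

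The clearest higher members belong to the large subunit. Rpl12, which sits at the base of the stalk, was at 775, 821, 792 and 778 CPM in the 4 control libraries and at 864, 867, 833 and 853 CPM in the 4 tranilast libraries. All 4 tranilast libraries lay above all controls. The log2 fold change was 0.11 (SE 0.025, edgeR adjusted p = 0.00098) with TMM and 0.23 with library totals, and the exact two-sided permutation p was 0.0286, the smallest that 4 against 4 allows. It was the only member whose groups did not overlap in the higher direction, against 24.5% of all tested genes.

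Rpl3, a core protein that reaches towards the site of peptide bond formation, had 1373, 1437, 1351 and 1357 CPM in the controls and 1501, 1495, 1404 and 1471 CPM with tranilast. Its difference was 0.09 (SE 0.026, edgeR adjusted p = 0.0062), and the groups overlapped only through control replicate 2 and tranilast replicate 3. Rpl9, another protein near the stalk base, was called at 0.07 (SE 0.031, edgeR adjusted p = 0.049) and was at 0.19 with library totals. Its groups overlapped (exact permutation p = 0.114), and the call was lost with RLE scaling, with no filter on low counts, and without any 1 library other than control replicate 2 or tranilast replicate 3. Rplp0 had 2439 ± 91.5 CPM in the controls and 2525 ± 62.6 CPM with tranilast (SD, n = 4), a log2 difference of 0.05 that did not pass the test (edgeR adjusted p = 0.098), whereas with library totals it was called higher at 0.17 (edgeR adjusted p = 1.3e-05). Its stalk partners Rplp1 and Rplp2 had differences of -0.04 and -0.09 with TMM and of 0.08 and 0.03 with library totals, and neither passed the TMM test.

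Rps18, a protein of the head of the small subunit, had the largest difference of the tested members. Its row held 27.5, 15.5, 23.0 and 27.8 CPM in the controls and 33.7, 35.7, 38.3 and 21.8 CPM with tranilast. Tranilast replicate 4 lay among the controls, and control replicate 2 was the lowest of the 8. The log2 fold change was 0.46 (SE 0.160, edgeR adjusted p = 0.021), and 0.57 with library totals. The call was lost with DESeq2 and without control replicate 2 or 3 or tranilast replicate 2 or 3. This row held only 2.07 to 6.07% of the counts of Rps18 together with Rps18-ps5 and Rps18-ps6, copies so alike that counting can split their reads. Summed over the 3 rows, the level was 634, 751, 635 and 644 CPM in the controls and 673, 666, 630 and 707 CPM with tranilast. The sums overlapped, with 666 ± 56.6 CPM against 669 ± 31.5 CPM (SD, n = 4) and an exact permutation p of 0.971.

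The same split affected Rpl10, a protein placed late in the assembly of the large subunit, whose row held 34.7 to 45.5% of its counts together with Rpl10-ps3. The row of Rpl10 was at 440 ± 61.8 CPM in the controls and 457 ± 22.8 CPM with tranilast (SD, n = 4). The sum was at 1081 ± 28.4 and 1120 ± 28.2 CPM (SD, n = 4, exact permutation p = 0.0857). For Rpl9, Rpl36, Rpl36a and Rplp2, the other members with a pseudogene row marked -ps, the member held at least 99.0% of the summed counts. Pseudogenes under other symbols were not looked for. Some members called lower with TMM also had counts that were not whole, among them Rpl18, Rpl21, Rpl35, Rps23, Rps25, Rpl36al and Rpl7l1. A split of their reads was not tested.

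Among the members called lower with TMM, the largest differences were in Rps29, Rps28 and Rpl27. Rps29, a zinc-binding protein of the small subunit, was at 61.0, 115, 95.2 and 72.6 CPM in the controls and at 62.3, 58.9, 60.7 and 78.3 CPM with tranilast. Control replicates 1 and 4 lay within the range of the tranilast libraries, and control replicate 2 was the highest. The log2 fold change of -0.40 (SE 0.137, edgeR adjusted p = 0.019) became -0.28 with library totals and did not pass there (edgeR adjusted p = 0.080). Rps28, another small protein of the same subunit, had 62.2, 100.5, 83.3 and 67.4 CPM in the controls and 63.9, 63.5, 56.7 and 75.3 CPM with tranilast. Its difference of -0.27 (SE 0.112, edgeR adjusted p = 0.047) was -0.15 with library totals and not called, and control replicates 1 and 4 again lay among the tranilast libraries.

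Rpl27 of the large subunit had 451, 537, 475 and 451 CPM in the controls and 400, 382, 393 and 452 CPM with tranilast. Tranilast replicate 4 alone reached the controls. Its difference was -0.23 (SE 0.053, edgeR adjusted p = 0.0011), and -0.12 with library totals (edgeR adjusted p = 0.062). Rps23, a protein of the decoding centre, Rpl35, near the exit of the peptide tunnel, and Rps25 were called with TMM at -0.16, -0.18 and -0.13, and had -0.04, -0.07 and -0.02 with library totals. The other members at the lower end of each subunit did not pass the test, with Rpl37 at -0.21, Rpl39 at -0.20, Rpl38 at -0.18, Rpl36 at -0.16, Rps21 at -0.14 and Rps16 at -0.14.

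In 11 of the 83 tested members all tranilast libraries lay below all controls, a smaller share than the 25.2% of all tested genes. They were Rpl36al, Rpl7l1, Rpl18, Rpl11, Rps15, Rpl21, Rps27a, Rpl8, Rpl7a, Rpl15 and Rpl13, 9 of the large and 2 of the small subunit, with log2 fold changes between -0.21 and -0.07 with TMM. With library totals 0 of the 11 were called, and Rpl8, Rpl7a, Rpl15 and Rpl13 changed to differences between 0.002 and 0.046. Rpl8, a core protein of the large subunit, was at 1142, 1139, 1166 and 1111 CPM in the controls and at 1030, 1077, 1050 and 1051 CPM with tranilast. This was a difference of -0.11 with TMM (SE 0.023, edgeR adjusted p = 0.00031) and of 0.002 with library totals.

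Of the members with known roles in assembly and growth signalling, Rpl11 and Rps6 were called lower with TMM and not with library totals. Rpl5 and Rpl11, which bind a small ribosomal RNA together and can bind Mdm2, were at -0.04 and -0.14 with TMM, of which Rpl11 passed (edgeR adjusted p = 0.00081), and at 0.08 and -0.02 with library totals. Rps6, the small subunit protein that S6 kinases phosphorylate, was at 1509 ± 38.5 CPM in the controls and 1426 ± 31.5 CPM with tranilast (SD, n = 4), called lower with TMM at -0.08 (edgeR adjusted p = 0.0066) and at 0.04 with library totals. Rpsa, also known as a laminin receptor, Rps7, Rps2 and Rps4x had differences between -0.003 and 0.004 with TMM and between 0.11 and 0.12 with library totals, where these 4 and Rpl5 were called higher. Rps9 of the small subunit and Rpl10a and Rpl22 of the large subunit had TMM differences between 0.05 and 0.06, and 0 of these 3 passed. With library totals all 3 were called higher, at 0.17, 0.18 and 0.18 (edgeR adjusted p = 4.1e-05, 8.8e-05 and 0.0027).

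**Figure D3:**
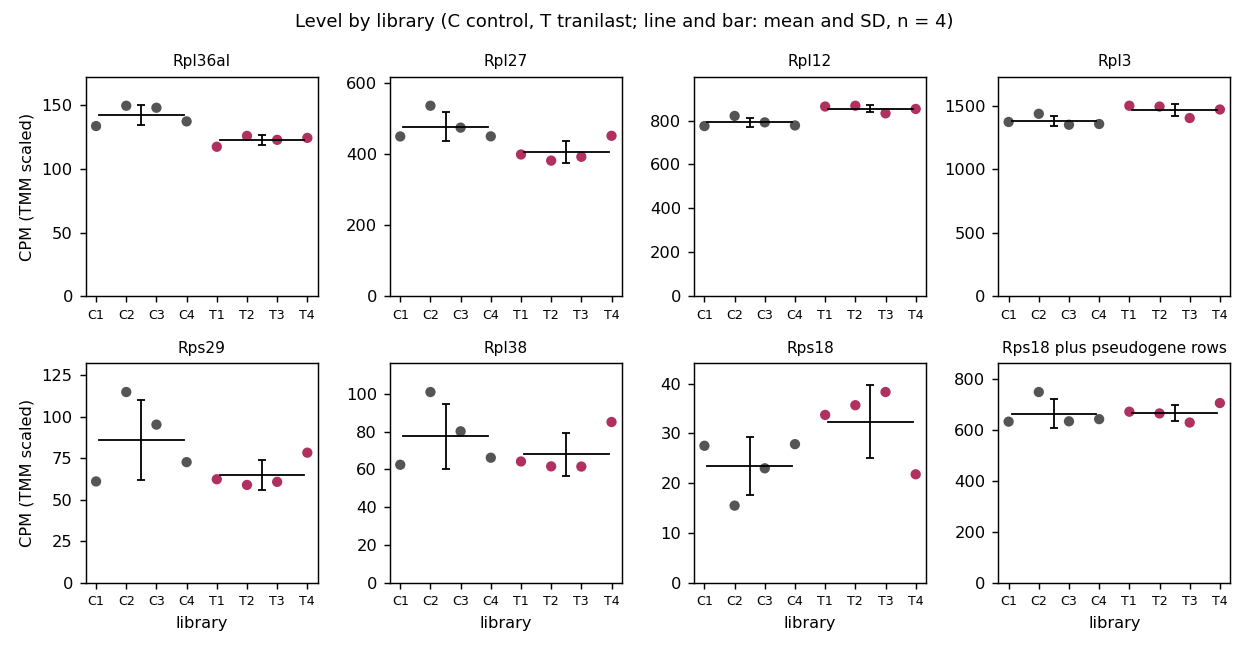
CPM (TMM scaled) of 7 members and of Rps18 summed with its pseudogene rows in each control (C) and tranilast (T) library, with the mean and SD of each group (n = 4). Rpl36al and Rpl12 show separate groups, Rps29 and Rpl38 are highest in control replicate 2, and the difference in the Rps18 row is not seen in the sum.

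Of the paralogs, 4 were not tested for want of counts. Rpl10l and Rpl39l were at 0 counts in all 8 libraries, which allows up to 0.249 CPM in the shallowest, Rpl3l, a muscle paralog of Rpl3, held 0 to 8 counts, and Rps23rg1 at most 2.03 counts. Rpl36al, which shares much of its sequence with Rpl36a, was at 134, 150, 148 and 137 CPM in the controls and at 117, 126, 123 and 124 CPM with tranilast. The groups did not overlap, at -0.21 (SE 0.042, edgeR adjusted p = 0.00029), and at -0.10 with library totals (edgeR adjusted p = 0.054). Rpl7l1, a relative of Rpl7 known from pre-ribosomes, was at 185, 181, 188 and 176 CPM in the controls and at 158, 155, 157 and 168 CPM with tranilast. Here too the groups were separate, at -0.20 (SE 0.036, edgeR adjusted p = 0.00014), and at -0.08 with library totals (edgeR adjusted p = 0.064).

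Ratios of a paralog to its parent within a library are free of the scaling. The log2 ratio of Rpl7l1 to Rpl7 was -2.33, -2.47, -2.35 and -2.43 in the controls and -2.60, -2.60, -2.57 and -2.51 with tranilast. All tranilast ratios lay below all control ratios, a difference of -0.17 (exact permutation p = 0.0286, adjusted 0.114 over the 4 ratios compared), which did not pass the adjustment. Rpl22l1 to Rpl22 and Rpl36al to Rpl36a differed by -0.13 and -0.12 (exact permutation p = 0.143 for each, adjusted 0.191). Rps27l, a p53 target, to Rps27 differed by -0.04 (exact permutation p = 0.371). Counting can also split the reads of such pairs.

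Rps27rt, at 7.11 ± 2.45 CPM in the controls and 5.32 ± 1.83 CPM with tranilast (SD, n = 4), and Rps19bp1, a nucleolar partner of Rps19, at 15.2 ± 3.08 and 12.7 ± 1.88 CPM, were low in level. Their differences of -0.41 and -0.26 did not pass the test (edgeR adjusted p = 0.16 and 0.11). Of the parents of these genes, Rpl3 and Rps23 passed with TMM, as given above. Rps19, often mutated in Diamond-Blackfan anaemia, was at 280 ± 20.1 CPM in the controls and 271 ± 6.10 CPM with tranilast (SD, n = 4).

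The large and small subunits differed together. With TMM the median log2 fold change was -0.09 for the 49 tested large subunit members and -0.08 for the 34 small subunit members. Called lower were 18 of 49 and 12 of 34, and called higher were 3 of 49 and 1 of 34. The large minus small difference of the medians was -0.01, a value that scaling does not alter because it shifts both subunits alike. Summed counts of the large subunit members were 1.51 to 1.53 times those of the small subunit members in the controls and 1.52 to 1.53 times with tranilast.

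Within each library the medians of the subunits, relative to each gene's mean over the 8 libraries, differed by -0.0131 to 0.0127 log2 units (large minus small). In control replicates 1 to 4 the large subunit stood at -0.05, 0.13, 0.05 and -0.01, and the small subunit at -0.04, 0.15, 0.04 and -0.005. In tranilast replicates 1 to 4 the large subunit stood at -0.04, -0.04, -0.08 and 0.02, and the small subunit at -0.03, -0.04, -0.07 and 0.01. Control replicates 1 and 4 thus lay within the range of the tranilast libraries, and control replicate 2 stood above all others in both subunits.

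**Figure D4:**
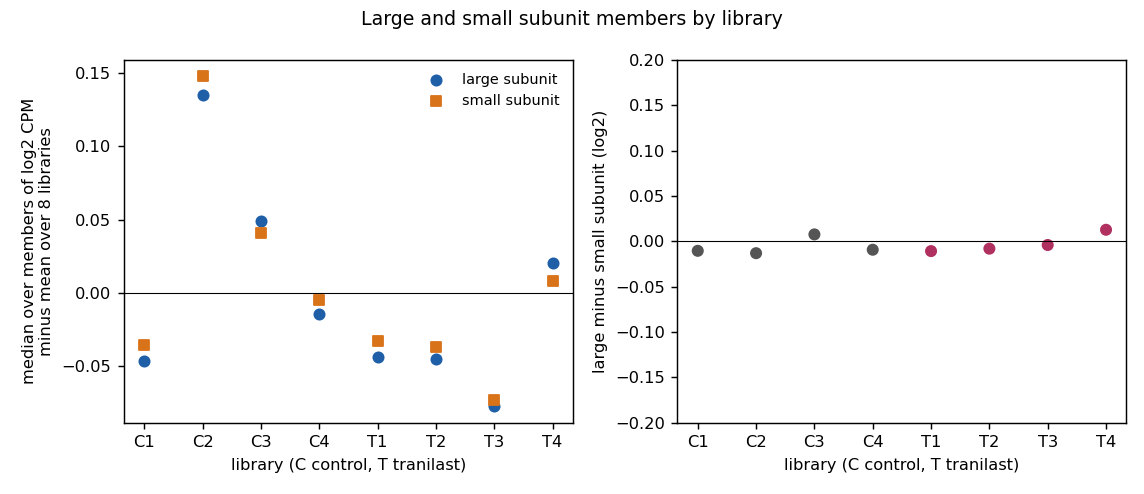
Left, median over the members of each subunit of log2 CPM minus the gene's mean over the 8 libraries, by library, and right, large minus small subunit. The subunits follow each other, control replicate 2 is highest, and large minus small lies between -0.0131 and 0.0127 log2 units.

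Control replicate 2 and tranilast replicate 4 stood apart from the rest of their groups in these genes. Control replicate 2 was the highest control in 70 of the 83 members and tranilast replicate 4 the highest tranilast library in 57. Their members lay a median of 0.13 and 0.06 log2 units above the mean of the other 3 libraries of the group, and 30 and 16 members lay more than 0.2 above it. The elevation was largest in short mRNAs. For the 32 members of at most 600 bases the median was 0.24 in control replicate 2 and 0.10 in tranilast replicate 4, and for the 18 members over 1000 bases it was 0.09 and 0.03.

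Short genes other than ribosomal protein genes were elevated in these libraries too. The 144 other tested genes of at most 600 bases had medians of 0.15 and 0.08, and the 9908 others over 1000 bases had -0.01 and -0.001. Across the 83 members the Spearman rank correlation of mRNA length with the deviation was -0.48 in control replicate 2 and -0.49 in tranilast replicate 4, a description over genes measured in the same libraries. Rps18 went the other way, at -0.74 and -0.72. What produced the elevation was not tested.

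The fold changes moved with length in a like way. Their median with TMM was -0.10, -0.09 and -0.03 for members of at most 600, 600 to 1000 and over 1000 bases, and -0.12, -0.06 and 0.02 for other tested genes of these lengths. Without control replicate 2, 18 members were called lower and 7 higher, and without tranilast replicate 3, 17 and 5. Without both control replicate 2 and tranilast replicate 4, a setting chosen after seeing the data, 30 were called lower, 23 of them also called with all libraries, and 8 higher, and the medians were -0.06 for the large and -0.05 for the small subunit. With a length trend removed from the counts, 12 were called lower and 13 higher, and Rpl12 stayed higher at 0.13 (edgeR adjusted p = 3.9e-05).

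**Figure D5:**
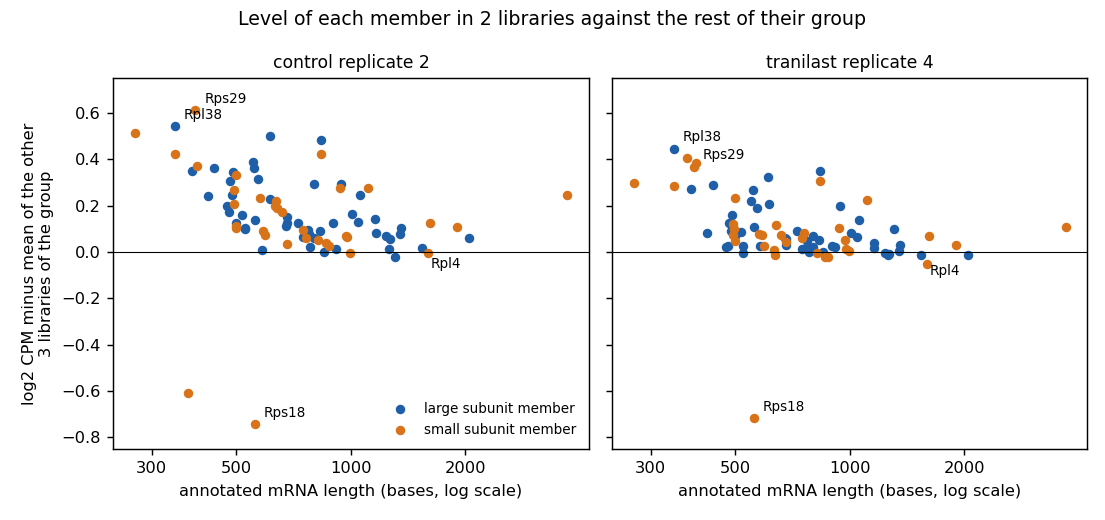
Log2 CPM of each tested member in control replicate 2 (left) and tranilast replicate 4 (right) minus the mean of the other 3 libraries of its group, against the annotated mRNA length in bases (log scale). Short members such as Rps29 and Rpl38 stand highest. The long Rpl4 lies near 0, whereas Rps16 and Rps20, also over 1000 bases, stand at 0.28 and 0.24 in control replicate 2. Rps18 lies far below, as does the low-count retrogene Rps27rt in control replicate 2.

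Genes that work with the ribosomal proteins were compared by lists. Of the core ribosomal genes outside the symbol rule, the ubiquitin-like fusion gene Fau was called lower with TMM at -0.12 (edgeR adjusted p = 0.0077), and was not called with library totals, at -0.01. Rack1, the scaffold protein on the small subunit, was at 0.03 and not called with TMM, and was called higher at 0.15 with library totals. Of 16 mRNAs of translation factors and others known to carry the tract, 5 were called higher (31.2%) and 3 lower (18.8%) with TMM. The shares of all tested genes were 28.2% and 28.8%. The median of the 16 was 0.02. With library totals 12 were called higher and 3 lower, with a median of 0.14, against 42.8% and 17.6% of all tested genes. The elongation factor Eef2 and the ribosome assembly factor Nop53 rose, at 0.23 and 0.38, while the RNA-binding protein Hnrnpa1 and vimentin (Vim) fell, at -0.39 and -0.40, and these 4 kept their call with library totals.

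The 20 listed ribosome biogenesis genes were all called lower with TMM, against 28.8% of all tested genes. The list is a selection made with earlier results of these data known, and Nop53, in another list, was higher at 0.38. The median of the 20 was -0.26 and the range -0.57 to -0.11. In 19 of them all tranilast libraries lay below all controls, against 25.2% of all tested genes. With library totals 17 were called lower and 0 higher, with a median of -0.15, against 17.6% and 42.8% of all tested genes. Nucleolin (Ncl) was at 2436 ± 30.6 CPM in the controls and 1637 ± 40.5 CPM with tranilast (SD, n = 4), and Polr1b, a subunit of the polymerase that makes ribosomal RNA, at 67.2 ± 2.46 and 46.3 ± 5.15 CPM.

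Of 9 dedicated chaperones and importers of ribosomal proteins, 5 were called lower (55.6%) and 1 higher (11.1%) with TMM, with a median of -0.10. With library totals 4 were called lower and 3 higher, with a median of 0.015. Called with TMM were Grwd1, a chaperone of Rpl3, at -0.41, Pdcd2l at -0.33, and Aamp, higher at 0.25. Of 13 regulators of the translation of these mRNAs, 2 were called higher (15.4%) and 3 lower (23.1%) with TMM, with a median of 0.02. With library totals 7 were called higher and 2 lower, with a median of 0.14. Of all tested genes 28.2% were called higher and 28.8% lower with TMM, and 42.8% and 17.6% with library totals. The cap-binding protein Eif4e and the tract-binding protein Larp1 fell, at -0.65 and -0.34, and Tsc2 and Tsc1, which restrain mTOR, rose, at 0.18 and 0.16. These 4 kept their call with library totals, whereas Mtor, at 0.08, did not pass with TMM.

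Of the 78 mitochondrial ribosomal protein genes, 30 were called lower (38.5%) and 3 higher (3.85%) with TMM, with a median of -0.10. The shares of all tested genes were 28.8% and 28.2%. With library totals 13 were called lower and 10 higher, with a median of 0.02, against 17.6% and 42.8% of all tested genes. Mrpl53 and Mrpl18 were lowest at -0.53 and -0.45, and Mrpl10 and Mrpl24 highest at 0.39 and 0.18. Of 8 small nucleolar RNA host genes, the table held Snhg4, which was at 1.85 ± 0.509 CPM in the controls and 0.866 ± 0.256 CPM with tranilast (SD, n = 4) and was called lower at -1.07 (edgeR adjusted p = 0.0077).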

How the data were processed

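The authors deposited, per gene and library, an estimated count of reads, not always whole, and an FPKM value normalised by them for transcript length and depth. Polyadenylated RNA was enriched before paired-end sequencing per the methods. The aligner and genome build were not given in the sources used here. Members and lists were chosen with earlier results of these data known. Counts were rounded, filtered with filterByExpr by group, scaled by TMM (factors 0.956 to 1.045) and tested in edgeR 4.0.16 (quasi-likelihood, no covariate, Benjamini-Hochberg over 10770 genes). The biological coefficient of variation was 5.09%. CPM are TMM scaled, except the sums over marker lists and the floors, which use library totals. DESeq2 1.42.0 and limma 3.58.1 (voom, and trend on log2(FPKM + 1) or log2(FPKM + 0.1)) were alternatives, as were other scalings, filters, a length trend and left-out libraries. Single genes were compared by an exact permutation test of log2(CPM + 0.1), 4 against 4, and paralog ratios with 0.5 added to the counts. The floors cover counting error only. The named members were the paralogs with their parents, stalk and assembly landmarks, and the 6 highest and 6 lowest core members of each subunit with a mean count of at least 50. In each other list they were the 2 highest and 2 lowest called genes. Some genes that the rule names are not reported here. The 11 members whose groups did not overlap, Mtor, Rpl4 and Rps20 were named after their values were seen. Lengths are of the APPRIS principal mRNA in GENCODE M21, matched for all 87 members, and start sequences come from RefSeq. In simulated data with 200 of 10730 genes changed by a log2 fold of 1, edgeR recovered 191 with 5 false calls. In the data 57.0% of genes were called and the members' median was -0.09, so the simulation does not test calls of that size.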

Additional observations from a re-analysis of the deposited data

Results flagged for a closer look

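In 86 groups of 4 libraries of named members and of subunit sums, 11 values stood apart from the rest of their group (the gap to the nearest library, divided by the range, was above Dixon's limit for groups of 4), and chance alone marks about 5% of such groups. The groups share the same libraries and are not independent, so the number of such values cannot be set against that rate. Control replicate 2 gave 6 of them, each the highest control. Rpl10a was at 679 CPM there against 623 for the next control, Rps16 at 577 against 483, Rps19 at 310 against 271, Rplp2 at 289 against 246, Rpl39 at 99.4 against 71.2 and Rpl22l1 at 42.2 against 32.8. Tranilast replicate 4 gave 4, each the highest tranilast library. Rpl37 was at 272 CPM there against 219 for the next tranilast library, Rpl36a at 208 against 192, Rps21 at 116 against 91.1 and Rpl38 at 85.03 against 64.2. Control replicate 3 gave 1, Rps2 at 1629 CPM, where the next control had 1603.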

How the results depend on the processing

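RLE scaling, DESeq2, limma-voom and a minimum of 10 counts in every library moved neither count of calls nor subunit median beyond the margins used (1.5 times for a count, the spread between libraries for a median), and with no filter 40 members were called lower. The counts of lower and higher calls became 4 and 14 with upper-quartile scaling, 0 and 28 with library totals, 0 and 20 with limma on log2(FPKM + 1), 0 and 21 with limma on log2(FPKM + 0.1), 12 and 13 with the length trend removed, and 0 and 0 for log2 fold changes of 1.5 or more in size. Without control replicate 2 and tranilast replicate 4 together, 8 were called higher. The large and small subunit medians became -0.021 and -0.012 with upper-quartile scaling, 0.028 and 0.038 with library totals, 0.022 and 0.034 with either FPKM fit, and -0.020 and -0.002 with the length trend removed. Among all genes, higher calls were 49.5% of calls with TMM, 62.6% with upper-quartile scaling, 70.9% with library totals and 70.5% on log2(FPKM + 1). Leaving out 1 library gave 17 to 41 lower and 2 to 7 higher calls, and a large minus small difference of -0.012 to 0.002 (positive without control replicate 1). The replicate numbers did not pair the libraries (correlations of same-numbered deviations -0.0556, -0.0442, 0.0076 and 0.107), and a fit with the replicate block called 29 lower and 5 higher. Some of the members that the naming rule picked changed sign, among them Rps6, which was called lower with TMM. With library totals these were Rpl22l1 0.042, Rpl36a 0.020, Rpl5 0.078, Rpl7 0.093, Rplp1 0.076, Rplp2 0.031, Rps19 0.068, Rps27 0.041, Rps27l 0.0067, Rps4x 0.114 and Rps6 0.036, and with upper-quartile scaling Rpl5 0.029, Rpl7 0.043, Rplp1 0.026, Rps19 0.019 and Rps4x 0.065. Of the members named after their values were seen, Rpl8, Rpl7a, Rpl15, Rpl13, Rpl4 and Rps20 were at 0.0019, 0.0069, 0.015, 0.046, 0.115 and 0.087 with library totals, and Rpl4 and Rps20 at 0.066 and 0.037 with upper-quartile scaling, and the remaining settings are not listed for them. On log2(FPKM + 1) and log2(FPKM + 0.1) the members picked by the rule were Rpl22l1 0.045 and 0.046, Rpl36a 0.026 in both, Rpl5 0.077 in both, Rpl7 0.083 in both, Rplp1 0.076 in both, Rps19 0.035 in both, Rps27 0.045 in both, Rps4x 0.114 in both and Rps6 0.036 in both. With the length trend removed they were Rpl22l1 0.031, Rpl36a 0.022, Rpl7 0.006, Rplp1 0.071, Rps19 0.021, Rps27 0.081, Rps27l 0.0021, Rps4x 0.041 and Rpsa -0.012. Rps7 and Rpsa were at -0.0019 and -0.0015 with RLE scaling and DESeq2 and at -0.003 and -0.0026 with no filter, Rpsa was at -0.0001 with limma-voom, and without both libraries Rps19 and Rps4x were at 0.0064 and 0.0058. Leaving out 1 library moved Rpl10 from -0.026 to 0.132, Rpl22l1 from -0.131 to 0.031, Rps19 from -0.069 to 0.0028, Rps2 from -0.0001 to 0.014, Rps27 from -0.149 to 0.040, Rps4x from -0.023 to 0.017, Rps7 from -0.013 to 0.012 and Rpsa from -0.010 to 0.018. The causes were not tested.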
